A study of Mus musculus with 2 samples.

Results

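The miRNAs of the imprinted Dlk1-Dio3 locus were examined in the small RNA of testicular extracellular vesicles (EVs). The authors isolated these membrane-bound particles from the supernatant of dissociated testis. The members were chosen by name from the miRNA entries of the deposited tables, with arm endings removed. The rule used no measured value, but it was set with earlier results of these data known. Of 52 miRNA names in the rule, 30 were listed, by 37 entries of 525 known miRNA entries and of 27065 entries in all. The data are 2 libraries of 1 condition, adult C57/BL6 mice, whose EVs were digested with proteinase K and RNase A before RNA extraction, a treatment aimed at protein and RNA outside the vesicles. No source used here tells if each library had its own animals or its own EV isolation, and the spread between libraries 1 and 2 may therefore be technical. With 1 condition there is no group to compare with, and every comparison below is between miRNAs or between libraries.

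Dlk1-Dio3 is a stretch of mouse chromosome 12 in which the protein-coding genes Dlk1, Rtl1 and Dio3 are expressed from the paternal chromosome, while the noncoding RNAs, with the miRNAs and box C/D snoRNAs cut from them, are expressed from the maternal one. The control region between Dlk1 and Meg3 is methylated on the paternal chromosome, and this mark is set in the male germ line. The miRNAs are best known from brain and placenta. Each comes from a hairpin precursor whose 5p and 3p arms are the candidate mature strands, and the strand that is loaded into an Argonaute protein finds its targets mainly through the seed, bases 2 to 8. The miRNAs that lie on the strand opposite to Rtl1, a retrotransposon-derived gene needed in placenta, pair perfectly with its mRNA and cleave it.

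Along the locus, the 51 miRNAs of the rule that GENCODE M21 places span chr12:109563692-109743795 of GRCm38 on the plus strand, or 180.1 kb. They fall into miR-770 in an exon of Meg3, the Rtl1 antisense group from miR-673 to miR-136, the Rian side with miR-341, miR-370 and miR-882, and the large group from miR-379 to miR-410. Hairpins of miR-431, miR-433, miR-127, miR-434 and miR-136 lie opposite the coding sequence of Rtl1. MiR-341 and miR-370 lie in an intron of Rian. From miR-382 onwards, the placed hairpins of the large group lie in exons or introns of Mirg, and the hairpins before it lie between annotated host genes. MiR-655 was not placed.

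The sequences of the 9 entries whose mean count reached 100 are shown first, because they carry most counts of the locus. They are the mature sequences of RefSeq (GRCm38.p6), 5′ to 3′, with the seed in capitals.
miR-127-3p: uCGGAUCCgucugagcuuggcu
miR-411-5p: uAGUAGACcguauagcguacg
miR-379-5p: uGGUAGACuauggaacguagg
miR-154-5p: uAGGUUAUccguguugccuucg
miR-369-5p: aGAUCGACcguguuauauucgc
miR-541-5p: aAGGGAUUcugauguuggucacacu
miR-376b-5p: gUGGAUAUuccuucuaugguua
miR-409-3p: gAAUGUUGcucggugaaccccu
miR-337-5p: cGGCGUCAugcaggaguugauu
No seed is repeated among these 9 entries. MiR-127-3p lies at chr12:109592888-109592909, miR-379-5p at chr12:109709065-109709085 and miR-411-5p at chr12:109710190-109710210. RefSeq sequences were matched to 34 of the 37 listed entries, and miR-376c-3p, miR-485-5p and miR-487b-3p are given by name only.

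The hairpin of miR-127 is shown because its 3p arm alone outweighed the rest of the locus. It is the plus strand of chr12:109592846-109592915, 70 bases long, with the 3p arm at bases 43 to 64 in capitals.
Mir127: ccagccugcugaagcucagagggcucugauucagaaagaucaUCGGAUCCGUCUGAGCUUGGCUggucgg
The 5p arm of this hairpin was not listed in both tables. Of the 96 arms with a RefSeq sequence, 10 arms of 5 miRNAs were found as exact reverse complements in the annotated Rtl1 mRNA, a transcript of 6358 bases, and 7 of these arms were listed in the EVs. They were miR-431-5p, miR-433-3p, miR-127-3p and both arms of miR-434 and miR-136. In the transcript, miR-127-3p matched bases 2642 to 2663.

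In sum, 11931 counts of library 1 and 9800 of library 2 fell on the locus. Its level was expressed as counts per 1000000 listed counts (CPM), where listed counts total 21970654 and 24829208, so that 1 count is worth 0.0455 and 0.0403 CPM. The summed level was 469 ± 105 CPM (SD, n = 2), with 543.04 CPM for library 1 and 395 CPM for library 2. As a share of the counts of known miRNA, the locus held 1.73% (exact Clopper-Pearson 95% interval 1.70 to 1.76) in the first library and 1.75% (1.72 to 1.79) in the other. The level thus differed between the libraries while the intervals of the share overlapped. PCR copies of a molecule are counted as separate tags, so the intervals here and below hold for counting error alone. In bulk EV RNA, fewer vesicles of a kind and less of a miRNA in each vesicle cannot be told apart.

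MiR-127-3p, of the Rtl1 antisense group, was the most abundant member in both libraries. It had 6985 counts in library 1 and 6231 in library 2, or 318 CPM (exact Poisson 95% interval 311 to 325) and 251 CPM (245 to 257). Its mean level was 284 ± 47.4 CPM (SD, n = 2), with a log2 ratio of library 2 over library 1 of -0.34. Among all 525 known miRNA entries it ranked 20th by mean CPM. It held 58.5% of the locus counts in library 1 and 63.6% in library 2, more than all other members together in each. Without it the summed level of the locus was 225 CPM in library 1 and 143.7 CPM in library 2, which was 0.718% and 0.638% of the known miRNA counts.

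**Figure D1:**
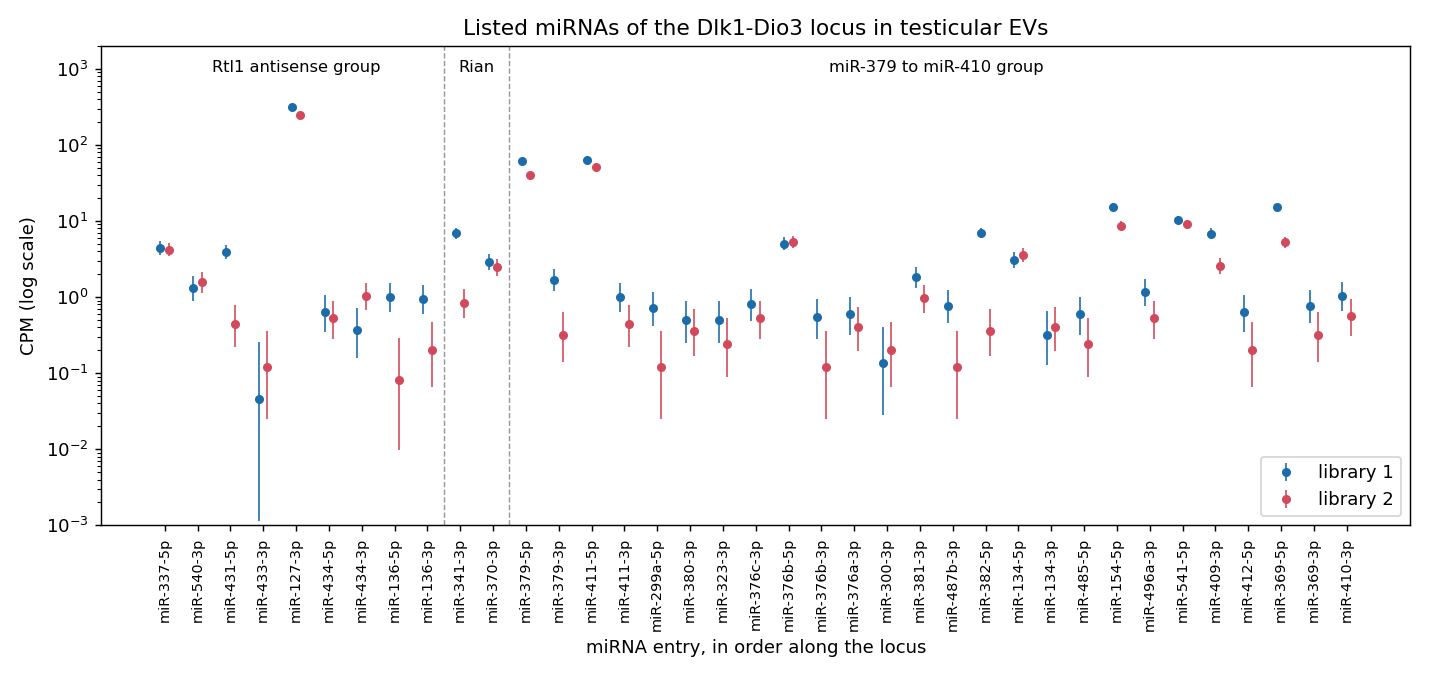
Level of each of the 37 listed entries in CPM on a log scale, ordered along the locus, with 1 point per library and exact Poisson 95% intervals that cover counting error only. MiR-127-3p stands at 318 and 251 CPM, miR-411-5p and miR-379-5p follow near the start of the miR-379 to miR-410 group, and the lowest entry, miR-433-3p, stands at 0.0455 and 0.121 CPM.

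The rest of the Rtl1 antisense group was far lower than miR-127-3p. MiR-337-5p, at the start of the group, had 97 and 104 counts in libraries 1 and 2, a mean of 4.30 ± 0.160 CPM (SD, n = 2) and a log2 ratio of -0.08. Its neighbour miR-540-3p had 29 and 39 counts. These entries differed between the libraries by less than counting error, since the counting interval of each ratio spans 0. MiR-431-5p, known in mouse muscle stem cells as a repressor of Pax7, had 87 counts in library 1 and 11 in library 2, a log2 ratio of -3.16 (-4.21 to -2.25 from counting error). It was therefore high in library 1 alone.

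The direct neighbours of miR-127 opposite Rtl1 had few counts. MiR-434-5p had 14 and 13 counts and miR-434-3p had 8 and 26. MiR-136-5p had 22 and 2 counts and miR-136-3p had 21 and 5. MiR-433-3p, with 1 and 3 counts, was the lowest entry of the locus, at rank 521 of the known miRNA entries. In counts, miR-127-3p exceeded the sum of both miR-434 arms 318-fold in library 1 and 160-fold in library 2, although their hairpins lie next to each other. CPM has no correction for length, and the arms compared are all close in length, from 20 to 25 bases among the listed entries. Of the 10 miRNAs of this group, 7 were listed, with 295 ± 50.6 CPM (SD, n = 2) in sum, and miR-673, miR-493 and miR-665 were not listed in both tables. Only entries given for both libraries, each with at least 1 count, are called listed here, so a miRNA that is not listed may still have counts in a single library.

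On the Rian side the levels were low and 1 of the listed miRNAs depended on the library. MiR-370-3p had 64 and 61 counts in libraries 1 and 2, with a counting interval of the log2 ratio that spans 0. MiR-341-3p had 152 and 21 counts, at 3.88 ± 4.29 CPM (SD, n = 2), with a log2 ratio of -3.03 (-3.77 to -2.37 from counting error). In sum, both entries had 6.57 ± 4.62 CPM. MiR-882, beyond Rian, and miR-770, in Meg3, were not listed in both tables.

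The miR-379 to miR-410 group held 37.3% of the locus counts in library 1 and 33.5% in library 2, with 167 ± 49.7 CPM (SD, n = 2). Its counts were concentrated in the first miRNAs of the group. MiR-411-5p had 1412 and 1283 counts, a mean of 57.97 ± 8.91 CPM and a log2 ratio of -0.31. MiR-379-5p had 1356 and 986 counts, a mean of 50.7 ± 15.6 CPM and a log2 ratio of -0.64. The counts of miR-411-5p exceeded those of miR-379-5p 1.04-fold in library 1 and 1.30-fold in library 2, and their levels did not differ beyond the spread of the libraries. With their 3p arms, miR-379 and miR-411 held 63.5% of the counts of the group in library 1 and 69.7% in library 2. Together with miR-127-3p, the 5p arms of this pair held 81.7% and 86.7% of all locus counts.

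**Figure D2:**
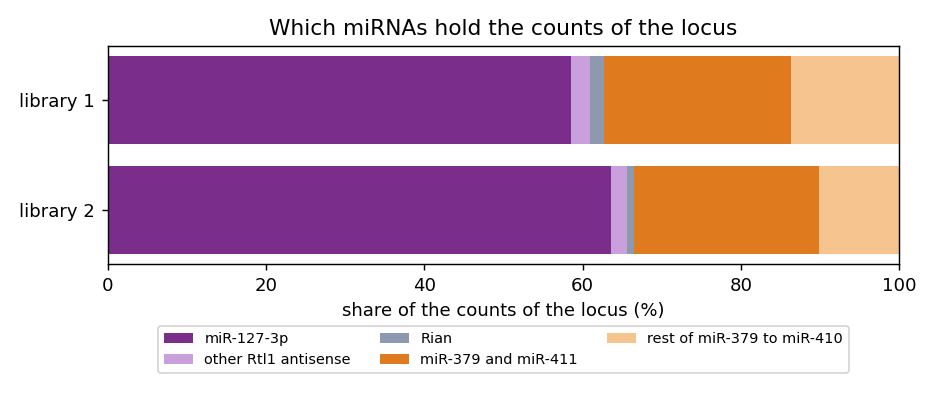
Share of the counts of the locus, in percent, held in each library by miR-127-3p, the other miRNAs of the Rtl1 antisense group, the Rian side, miR-379 with miR-411, and the rest of the miR-379 to miR-410 group. MiR-127-3p fills 58.5% of the bar of library 1 and 63.6% of that of library 2, and the order of the parts by size is the same in both.

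At the other end of the group, near and within Mirg, several miRNAs were found at intermediate levels. MiR-154-5p had 340 and 214 counts in libraries 1 and 2, a mean of 12.05 ± 4.85 CPM (SD, n = 2) and a log2 ratio of -0.84. MiR-369-5p had 334 and 130 counts, 10.2 ± 7.05 CPM and a log2 ratio of -1.54. MiR-541-5p had 227 and 225 counts, 9.70 ± 0.898 CPM and a log2 ratio of -0.19. The means of these 3 entries lie within the spread of the libraries, so their order is not settled. MiR-409-3p had 150 and 64 counts, 4.70 ± 3.005 CPM and a log2 ratio of -1.41, and was again higher in library 1. The 5 miRNAs from miR-541 to miR-410, which include miR-409 and miR-369, had 26.4 ± 11.9 CPM in sum.

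Between miR-411 and miR-541, 14 listed miRNAs with 16 entries had 30.6 ± 11.98 CPM (SD, n = 2) in sum. MiR-376b-5p led this stretch after miR-154-5p, at 5.18 ± 0.187 CPM. It had 5.05 CPM (111 counts) in library 1 and 5.32 CPM in library 2, with a log2 ratio of 0.07. The miR-376 miRNAs are known in mouse and human brain for A-to-I editing of their precursors. Of the same family, miR-376c-3p had 18 and 13 counts, miR-376a-3p 13 and 10, and miR-376b-3p 12 and 3. MiR-134-5p, known in rat hippocampal neurons as a repressor of Limk1, had 68 and 90 counts, and was steady between the libraries within counting error. MiR-382-5p, whose hairpin lies beside that of miR-134, had 153 counts in library 1 and 9 in library 2, a log2 ratio of -4.26 (-5.42 to -3.30 from counting error). This was the largest difference between the libraries among the listed entries of the locus.

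The remaining listed entries of the group each had at most 40 counts in a library. MiR-381-3p had 40 and 24 counts, miR-496a-3p 26 and 13, and miR-410-3p 23 and 14. MiR-134-3p, miR-369-3p, miR-380-3p, miR-299a-5p, miR-412-5p, miR-485-5p, miR-323-3p, miR-300-3p and miR-487b-3p had under 10 counts in at least 1 library. Of the 38 miRNAs of this group, 21 were listed. Those not listed in both tables were miR-1197, miR-758, miR-329, miR-494, miR-679, miR-1193, miR-666, miR-543, miR-495, miR-667, miR-654, miR-539, miR-544, miR-668, miR-453, miR-377 and miR-655. The stretch from miR-758 to miR-667 was without any listed miRNA, while miRNAs on both sides of it were listed.

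In all, 20 of the 52 miRNAs had an entry with at least 10 counts in both libraries. Of the 37 listed entries, 29 reached a mean count of 10, and these were compared between the libraries. More than 2-fold apart were 13 of these 29 entries, or 44.8%, against 35.1% of all known miRNA entries with the same minimum. Lower in library 2 by more than 2-fold were 12 members, or 41.4%, against 28.6% of all. Only miR-434-3p was over 2-fold higher in library 2, with a log2 ratio of 1.52, which is 3.45% of the members against 6.47% of all. The 12 lower entries were miR-382-5p, miR-136-5p, miR-431-5p, miR-341-3p, miR-487b-3p, miR-379-3p, miR-136-3p, miR-369-5p, miR-409-3p, miR-369-3p, miR-496a-3p and miR-411-3p. The 2-fold line is a rule of size and not a test, and with 2 libraries it cannot be said whether a difference would recur.

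These differences moved with the count and with the scaling. Among entries with a mean count from 10 to 100, 11 of 20 members were over 2-fold apart, against 48.9% of all known miRNA entries in that range. At a mean count of at least 100, 2 of 9 members were, against 19.9%. The members had a median log2 ratio of -0.84, the other known miRNA entries of -0.44 and all 23876 entries at that minimum of 0.20. When the counts were scaled to the known miRNA of each library instead, the median of the members was -0.37 and 9 of 29 were over 2-fold apart, 8 lower and 1 higher, against 27.9% of the known miRNA entries. Under that scaling, 18 of the 29 members were lower in library 2, and 25 of 29 in CPM. The part of library composition in these differences was not tested.

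**Figure D3:**
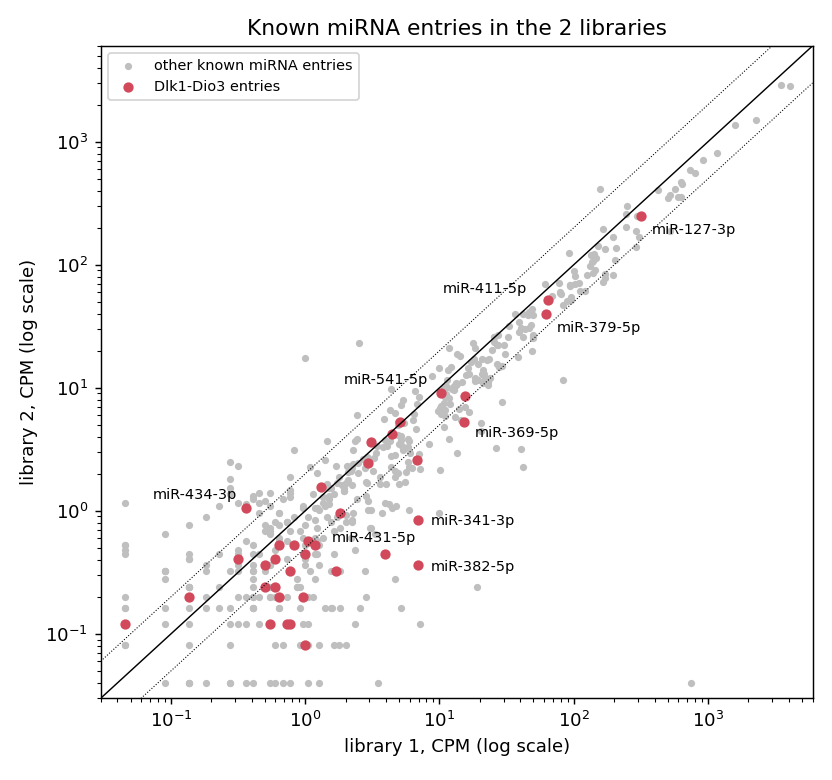
Level of every known miRNA entry in library 1 (horizontal) and library 2 (vertical), in CPM on log scales, with the Dlk1-Dio3 entries in red, the line of equal levels solid and the 2-fold lines dotted. MiR-127-3p, miR-411-5p and miR-379-5p lie between the 2-fold lines, and miR-341-3p, miR-431-5p and miR-382-5p lie well below them.

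The 4 entries that were lowest in library 2 relative to library 1 are shown next, among those with a mean count of at least 10, again with RefSeq sequence and the seed in capitals. They come from several places in the locus and have different seeds.
miR-382-5p: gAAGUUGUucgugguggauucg
miR-136-5p: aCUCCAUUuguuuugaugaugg
miR-431-5p: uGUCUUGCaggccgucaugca
miR-341-3p: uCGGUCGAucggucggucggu
MiR-341 comes from an intron of Rian, miR-431 and miR-136 from the strand opposite Rtl1 and miR-382 from an exon of Mirg. In each of them library 1 was the high one.

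Of the 30 listed miRNAs, 7 had both arms listed, 8 the 5p arm alone and 15 the 3p arm alone, miR-127 among the last. For miR-411, the 5p arm held 98.5% of the counts of both arms in library 1 (exact Clopper-Pearson 95% interval 97.7 to 99.04) and 99.1% in library 2 (98.5 to 99.6). For miR-379 it held 97.3% (96.4 to 98.1) and 99.2% (98.4 to 99.7). In these miRNAs the 5p entry thus held by far the most counts, and the entries of both arms were of type hairpin. MiR-369 had 95.2% and 94.2% of its counts on the 5p arm, miR-376b 90.2% and 97.8%, and miR-134 90.7% and 90%. In miR-369, miR-376b and miR-134 the arms were of unlike entry types, mature against hairpin. Arm shares were not recomputed by type. In miR-434 the 5p share was 63.6% (40.7 to 82.8) in library 1 and 33.3% (19.1 to 50.2) in library 2, so the leading arm changed between the libraries and the intervals overlapped. MiR-136 was under 10 counts in library 2 over both arms and gave 51.2% and 28.6%. Of the 6 miRNAs with at least 10 counts over both arms in each library, 5 had the 5p arm ahead in both.

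**Figure D4:**
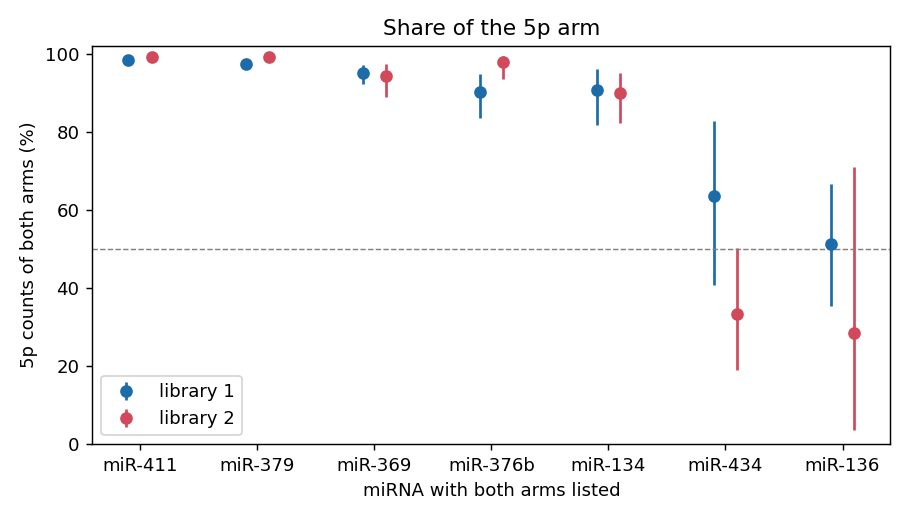
Share of the 5p arm, in percent of the counts of both arms, for the 7 miRNAs with both arms listed, with 1 point per library and exact Clopper-Pearson 95% intervals that cover counting error only. MiR-411, miR-379, miR-369, miR-376b and miR-134 stand at 90% or higher in both libraries, and the intervals of miR-434 and miR-136 are wide.

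Some arms of the locus are close to each other in sequence, so that a tag with errors could be given to the neighbour. The 3p arms of miR-379 and miR-411 have the same seed and are set side by side for that reason.
miR-379-3p: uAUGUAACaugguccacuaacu
miR-411-3p: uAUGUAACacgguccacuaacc
They differ at 2 of 22 bases. MiR-379-3p had 37 and 8 counts in libraries 1 and 2 and miR-411-3p had 22 and 11, so both were low beside their 5p arms. MiR-376b-5p differs at 1 of 22 bases from miR-376c-5p, which was not listed, so the counts of miR-376b-5p cannot be given to 1 of these miRNAs with certainty. MiR-376b-3p and miR-376a-3p differ at 3 bases, as do miR-300-3p and miR-381-3p. No entry of the locus named more than 1 miRNA.

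The listed and unlisted arms were also compared by base composition, as a description. A first base U was found in 16 of 34 listed arms (47.1%) and in 22 of 62 unlisted arms (35.5%). The median GC content was 47.6% in listed and 50% in unlisted arms. Across the 34 listed arms, GC content and mean CPM had a Spearman rho of 0.21, over points that share libraries and hairpins.

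Beside the known miRNA of the whole table, the locus had a few high and many low entries. Only miR-127-3p, miR-411-5p and miR-379-5p were among the first 100 by mean CPM, with miR-411-5p at rank 67 and miR-379-5p at rank 68. The median of the mean CPM was 0.805 over the 37 members and 2.35 over the other known miRNA entries. The entry type was also unequal, with 14 members of type mature and 23 of type hairpin, and the 3 highest members were all of type hairpin. All 37 carry an arm name, and no source used here explains the type. Counting the mature type alone leaves out miR-127-3p and gives 43.9 CPM for the locus.

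Other RNAs of the locus were nearly unlisted. Of 8 other miRNAs assigned to it, 1 was listed, miR-3071-3p, which is read from the strand opposite miR-136, with 27 and 11 counts. None of 90 miRNA precursor families of the tables carried a number of the rule. In the authors' order of databases, known miRNAs came before the database of these families. Tags of the known miRNAs were thus taken first, and this absence says little about the locus. Among the snoRNA entries of the tables, 0 were of SNORD112, SNORD113 or SNORD114, the box C/D snoRNA families that Rian is known for. Of 305 predicted small RNAs placed on chromosome 12, 0 lay within the span of the locus, and the nearest was 2276.7 kb away. These positions come with no stated genome build, and they were read as GRCm38.

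Markers of the cells that could release such vesicles were read from the same libraries. The testis label was met by miRNAs of germ cells, with 14 of 15 names listed and 6714 and 5143 CPM in libraries 1 and 2, led by miR-470-5p. MiR-202, of gonadal somatic cells, had 414 and 373 CPM over both arms. Of the 6 marker names of neurons and brain, where the locus is known to be active, all were listed, with 207.7 and 147 CPM. Most of this was miR-138-5p, at 130 ± 22.9 CPM (SD, n = 2). Only 5 of the 8 entries of these names reached a mean count of 10. MiR-219a-5p had 3 and 3 counts in libraries 1 and 2, miR-132-3p 3 and 6, and miR-9-3p 3 and 10. MiR-124-3p, which defines neurons more closely, had 28.2 ± 14.6 CPM and miR-9-5p 8.11 ± 2.36 CPM, both below miR-411-5p. The markers of red blood cells had 633 and 358 CPM, those of vessels and smooth muscle 671 and 474 CPM, those of adrenal and pituitary 185 and 130 CPM, and those of leukocytes 114 and 67.3 CPM. Markers of liver had 8.37 and 3.50 CPM and those of muscle, with 3 of 5 names listed, 7.69 and 7.65 CPM. These sums were lower in library 2, as was that of the locus, except that those of muscle were nearly equal. Single entries did not all follow their sum, and miR-202-5p was higher in library 2. The part of any cell type in the counts of the locus was not tested.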

How the data were processed

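Small RNA of testicular EVs was sequenced by the authors on the BGISEQ-500 platform, and clean reads were mapped with Bowtie2 and cmsearch (versions and genome build not given in the sources used here), each tag being given to 1 class in a fixed order of databases. The authors deposited a whole-number count per entry and library, with no normalization. They also deposited a TPM value, which is tags per 1000000 of a larger total (23442774 and 26168747 tags) with no length correction, so its unit is RPM. In libraries 1 and 2, 4 classes of unannotated tags held 73.4% and 74.3% of the listed counts, and known miRNA had 689004 and 559053 counts.

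CPM were computed over all listed counts. Intervals are exact Poisson or Clopper-Pearson 95% intervals (SciPy 1.17.1). TMM (edgeR 4.0.16 in R 4.3.3, without the 4 classes), DESeq2 1.42.0 size factors, other denominators and minimums, entry types and each library left out were tried. Other software was pandas 2.3.3, NumPy 2.4.6 and, for plots, matplotlib 3.10.9.

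The members and lists were chosen with earlier results of these data known. Named are members whose mean count reached 100, the 10 highest, those with both arms, those over 2-fold apart, and those unlisted or under 10 counts. MiR-370-3p, miR-540-3p, miR-381-3p, miR-376c-3p, miR-376a-3p, miR-410-3p, miR-434-5p and miR-134-5p are outside this rule or within it by their arms alone. Positions were taken from GENCODE M21, which put miR-1193 in the miR-379 to miR-410 group. Sequences were taken from RefSeq.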

Additional observations from a re-analysis of the deposited data

How the results depend on the processing

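Each of 9 results was recomputed under up to 14 settings, and of 89 values 65 stayed within the spread of the libraries (for counts of entries and the median log2 ratio, which have no value per library, within 1.5 times), 24 moved and 0 reversed. Many of the 65 could not have moved. A share is unchanged by rescaling, and the miRNAs at the minimum were counted from raw counts under every scaling. With 2 libraries, the level or share of a single library always lies within the SD of their mean. The tally is therefore no measure of robustness. The median log2 ratio of the members was -0.84 in CPM and -0.37 when scaled to known miRNA counts. It was -0.34 at a mean count of at least 100 and -0.55 for the mature type alone. Other denominators rescaled the summed level to 17423 per 1000000 known miRNA counts and, without the 4 unannotated classes, to 1788 CPM. Entries of type mature alone gave 43.9 CPM and 0.296% of the known miRNA counts of that type. Of the locus counts of that type, they gave 0% for miR-127, 17.8% for the Rtl1 antisense group and 76.0% for the miR-379 to miR-410 group. They held 11 miRNAs at 10 counts in both libraries. Entries of type hairpin alone gave 3.48% of the known miRNA counts of the hairpin type. Their locus shares were 67.3%, 67.9% and 31.3%, in the same order, with 9 miRNAs at the minimum. MiR-127-3p is of type hairpin, so the mature type alone leaves it out. Leaving out entries that name several miRNAs gave 1.79% of the known miRNA counts that remained. No locus entry names several miRNAs, so the total alone changed. A minimum of 100 counts in both libraries gave 7 miRNAs, 1.60% of known miRNA counts and 66.3% for miR-127. At a mean count of at least 100, 2 of 9 members were over 2-fold apart, against 19.9% of known miRNA entries. Without miR-127-3p, the sum was 184 CPM and the share 0.678%. The settings without the unannotated classes or miR-127-3p, and all settings for the count of entries over 2-fold apart, were chosen after seeing the data. With each library left out in turn, the sum ranged from 395 to 543.04 CPM, the share of known miRNA counts from 1.73% to 1.75%, miR-127 from 58.5% to 63.6%, the Rtl1 antisense group from 60.9% to 65.7%, the miR-379 to miR-410 group from 33.5% to 37.3% and the miRNAs at the minimum from 20 to 28. The ratio between the libraries could not be computed from 1 library. TMM put the median log2 ratio of the members at -1.03 and DESeq2 size factors at -1.02, each with 16 of 29 entries over 2-fold apart, against 40.9% and 40.2% of all known miRNA entries, whose medians were -0.64 and -0.63. No paired analysis was possible because a single condition was sequenced. Entries with under 10 counts in a library have wide counting intervals.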

Other observations

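MiRNAs of other imprinted genes were also listed. MiR-296 and miR-298, of the Gnas locus, had 127.9 and 85.5 CPM in libraries 1 and 2, with 2408 and 1757 counts for miR-296-5p, and 0 of their 3 entries were over 2-fold apart. MiR-335-3p, from an intron of Mest, had 21 and 3 counts, and miR-483-5p, from an intron of Igf2, had 40 and 8. MiR-675, cut from H19, was not listed in both tables. The miR-297, miR-466, miR-467 and miR-669 families, many of them from an intron of Sfmbt2, had 202 and 140.0 CPM over 38 entries, and 14 of the 32 with a mean count of at least 10 were over 2-fold apart, against 35.1% of all known miRNA entries at that minimum. MiR-669b-5p of these families had 915 counts in library 1 and 56 in library 2, while miR-669f-5p had 22 and 435. Families of the last kind have near-identical members, and their counts are uncertain for each member.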
